A study of Mus musculus with 12 samples.

Results

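Nr4a1, Npas4 and Klf4 encode transcription factors whose genes are induced quickly when neurons fire, and they were taken by symbol from the 2 deposited gene tables of BK KO and WT mouse brain. The 3 genes are among 1017 different genes in these tables, 652 in the hippocampus table and 561 in the cortex table. Nr4a1 was listed for hippocampus, Klf4 for cortex and Npas4 for both tissues, which gives 4 gene and tissue pairs. The level of Nr4a1 in cortex and of Klf4 in hippocampus was not analysed here. The series holds 12 libraries in 4 groups of 3, namely hippocampus and cortex of WT and of BK KO (kcnma1-/-) mice. All mice are adult C57BL/6 animals from a colony bred from heterozygous parents. The knockout is a small deletion made in kcnma1 by CRISPR/Cas9 and carried in the germline, so it is present in all cell types and from development on. Each library is RNA of a whole dissected tissue. The comparison asks which transcripts differ between adult brain with and without BK channels.

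When a neuron is strongly depolarized, calcium enters through NMDA receptors and L-type channels, and kinases such as CaMKIV and ERK activate the factors CREB, SRF and MEF2, which sit on the promoters of immediate early genes. Their products are often transcription factors themselves, so that a brief burst of activity starts a later wave of gene expression. Npas4 is the member of this class that depends most on calcium entry in neurons, and it regulates genes of inhibitory synapses and Bdnf. Nr4a1 (also Nur77) is an orphan nuclear receptor that is induced by activity, growth factors and stress hormones in many tissues. Klf4 is a zinc finger factor known from stem cells, which in the brain is expressed by endothelial cells and glia as well as by neurons, where it restrains axon growth.

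In GENCODE M21 (GRCm38), Nr4a1 lies on the plus strand of chromosome 15 from 101254269 to 101274795, Npas4 on the minus strand of chromosome 19 from 4984355 to 4990316, and Klf4 on the minus strand of chromosome 4 from 55527143 to 55532466. Their longest coding transcripts have 8, 8 and 5 exons. The number of annotated genes that overlap them on either strand is 0 for each.

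The sequences before the start sites are shown because the genes are grouped by their shared control by activity, and the cAMP response element (CRE) bound by CREB is the best known element of that control. They are RefSeq promoters of build GRCm38.p6, read 5′ to 3′ on the strand of the gene. Capitals mark the CRE half-site TGACG, on either strand (as CGTCA on the other), and the TATA element TATAA, likewise on either strand. The Nr4a1 sequence is chr15:101266596-101266845 on the plus strand, the 250 bases before the start of the shorter coding transcripts, and it lies in an intron of the longest one. The Klf4 sequence is chr4:55532476-55532725 on the minus strand, the 250 bases before its start. Of Npas4 only 30 bases round its half-sites are given, chr19:4990128-4990157 on the minus strand, since 1 GENCODE transcript starts earlier and includes them in its first exon.
Nr4a1: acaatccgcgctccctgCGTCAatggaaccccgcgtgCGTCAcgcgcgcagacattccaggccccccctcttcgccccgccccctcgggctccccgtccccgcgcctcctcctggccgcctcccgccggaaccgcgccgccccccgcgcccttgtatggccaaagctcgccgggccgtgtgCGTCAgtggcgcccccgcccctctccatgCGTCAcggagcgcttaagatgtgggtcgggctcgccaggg
Npas4: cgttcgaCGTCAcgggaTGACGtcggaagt
Klf4: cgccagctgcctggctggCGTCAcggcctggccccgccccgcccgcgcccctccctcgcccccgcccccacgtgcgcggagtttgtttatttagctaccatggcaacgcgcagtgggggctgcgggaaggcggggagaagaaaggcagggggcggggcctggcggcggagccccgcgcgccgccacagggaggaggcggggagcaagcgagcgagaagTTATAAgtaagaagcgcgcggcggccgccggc

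In the 250 bases before the start, the Nr4a1 promoter holds 4 CRE half-sites, which begin 233, 213, 69 and 40 bases before it. The Npas4 promoter holds 2, at 179 and 169 bases, on opposite strands, and the Klf4 promoter holds 1, at 232 bases. A half-site is found in 17.8% of all 32851 RefSeq promoters of this length, and in 26.6% of the 3606 whose GC content is at least that of Npas4 (68.8%). The GC content of Nr4a1 and Klf4 is 74.4% and 74.0%, against a median of 52.4% over all promoters. The full palindromic element TGACGTCA (1.55% of all promoters), which contains the half-site on both strands, has 0 matches in the 3 windows, and so has the CArG box bound by SRF (1.47% of all promoters). Among the 3606 GC-rich promoters these shares are 2.25% and 0.555%. TATAA is found once in Npas4, 26 bases before the start, and at overlapping positions on both strands in Klf4, 31 and 32 bases before it (22.8% of all promoters and 2.86% of the GC-rich 3606). In Nr4a1 it has 0 matches. A match describes the letters and does not show that a factor binds there.

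The tables list only genes that passed the study's own thresholds in the same libraries, which were a p-value under 0.05 before adjustment and a change of more than 0.58 on the log2 scale. A difference between the genotypes is therefore a condition for being listed, and the tests below describe its size and steadiness and are no independent evidence for it. Values per library are taken as FPKM, fragments scaled to transcript length and library size, a unit that the authors' text does not name. Each tissue was tested with limma on log2(FPKM + 1), 3 BK KO against 3 WT libraries, and a gene was called when it passed the same 2 thresholds. Kcnma1 itself, the targeted gene, was at 9.67 to 11.3 FPKM in WT and 2.54 to 2.82 FPKM in BK KO hippocampus, and at 9.82 to 11.98 and 2.76 to 3.09 FPKM in cortex, so each library matched its label. The depth of the libraries is unknown, and tissue identity could not be checked, since most defining markers of the tissues were not analysed here.

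Nr4a1 and Npas4 were both lower in BK KO hippocampus, where their mean levels fell by 54.6% and 54.2%. For Nr4a1, WT libraries 1 to 3 held 28.3, 15.5 and 20.6 FPKM, while BK KO libraries 1 to 3 held 14.0, 3.70 and 11.6 FPKM. All BK KO libraries lay below all WT libraries, but the highest BK KO library and the lowest WT library were only 1.54 FPKM apart, and BK KO library 2 was far below the others, at 29.0% of the mean of the other two BK KO libraries. Mean FPKM was 21.5 ± 6.44 (SD, n = 3) for WT and 9.74 ± 5.37 (SD, n = 3) for BK KO. The log2 fold change was -1.19, with a standard error of 0.45 and a 95% interval of -2.25 to -0.13. The limma p was 0.0328, or adjusted p = 0.0475 by Benjamini-Hochberg over all listed genes, and the two-sided exact permutation test gave p = 0.1, the smallest that 3 against 3 libraries allow. In bulk tissue, fewer cells that express a gene and less RNA per cell cannot be told apart.

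Npas4 had a lower level per length than Nr4a1 in all 6 hippocampus libraries. WT libraries 1 to 3 held 2.67, 1.68 and 2.68 FPKM, while BK KO libraries 1 to 3 held 1.49, 0.246 and 1.49 FPKM. The groups did not overlap, and their nearest libraries, WT library 2 and BK KO library 3, were 0.192 FPKM apart. BK KO library 2 was again the lowest, at 16.5% of the mean of the other two. Mean FPKM was 2.34 ± 0.573 (SD, n = 3) for WT and 1.07 ± 0.717 (SD, n = 3) for BK KO. The log2 fold change was -0.74, with a standard error of 0.29 and a 95% interval of -1.44 to -0.05. The limma p was 0.0395, or adjusted p = 0.0529, and the exact permutation test again gave p = 0.1. On this scale the change of a gene at 1 to 3 FPKM is understated. With a pseudocount of 0.1 in place of 1 the log2 fold change was -1.32. That setting gives more weight to the 0.246 FPKM of BK KO library 2, and without this library the log2(FPKM + 1) fit gave -0.41.

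In hippocampus both genes were thus called lower and had separated groups. Among all 652 listed genes 21.9% were called lower and 47.1% had every BK KO library below every WT library. Sorted by log2 fold change from the lowest, Nr4a1 ranked 6 and Npas4 ranked 63 of 652, with Kcnma1 at rank 1.  Without WT library 1 the limma p rose to 0.0914 for Nr4a1 and 0.0956 for Npas4, and without WT library 3 to 0.0679 and 0.103, so that neither was called. Without BK KO library 2, Nr4a1 was still called with a log2 fold change of -0.67 and a limma p of 0.0430, and Npas4 was not, at -0.41 and a limma p of 0.0612.

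In cortex, Npas4 and Klf4 were lower in BK KO mice, and their mean levels fell by 61.0% and 44.6%. For Npas4, WT libraries 1 to 3 held 2.53, 1.79 and 3.68 FPKM, while BK KO libraries 1 to 3 held 1.12, 0.534 and 1.46 FPKM. The groups were separate, with 0.329 FPKM between the nearest libraries, and library 2 was the lowest of each genotype, as in hippocampus. Mean FPKM was 2.66 ± 0.950 (SD, n = 3) for WT and 1.04 ± 0.470 (SD, n = 3) for BK KO. The log2 fold change was -0.84, with a standard error of 0.25 and a 95% interval of -1.45 to -0.23. The limma p was 0.0147, or adjusted p = 0.0357, with an exact permutation p = 0.1. Npas4 in cortex was called in all 6 fits that left out 1 library, with log2 fold changes from -1.02 to -0.65, and a pseudocount of 0.1 gave -1.32.

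For Klf4, WT cortex libraries 1 to 3 held 3.81, 2.44 and 3.74 FPKM, while BK KO cortex libraries 1 to 3 held 1.90, 1.54 and 2.09 FPKM. WT library 2 lay 0.348 FPKM above the highest BK KO library, while the other two WT libraries were well above it. The spread among the BK KO libraries was the smallest of the 4 pairs, with a coefficient of variation of 15.1%, against 45.2% for Npas4 in the same libraries. Mean FPKM was 3.33 ± 0.770 (SD, n = 3) for WT and 1.85 ± 0.279 (SD, n = 3) for BK KO. The log2 fold change was -0.59, with a standard error of 0.16 and a 95% interval of -0.98 to -0.21. The limma p was 0.00953, or adjusted p = 0.0307, with an exact permutation p = 0.1. This fold change is just past the threshold of 0.58: without WT library 1, WT library 3 or BK KO library 2 it was -0.51, -0.52 and -0.52, with limma p-values of 0.0338, 0.0339 and 0.0354, and Klf4 was no longer called.

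Both cortex genes were called lower and had separated groups, as were 20% and 56.3% of all 561 listed genes. By log2 fold change, Npas4 ranked 33 and Klf4 ranked 111 of 561 from the lowest.

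**Figure D1:**
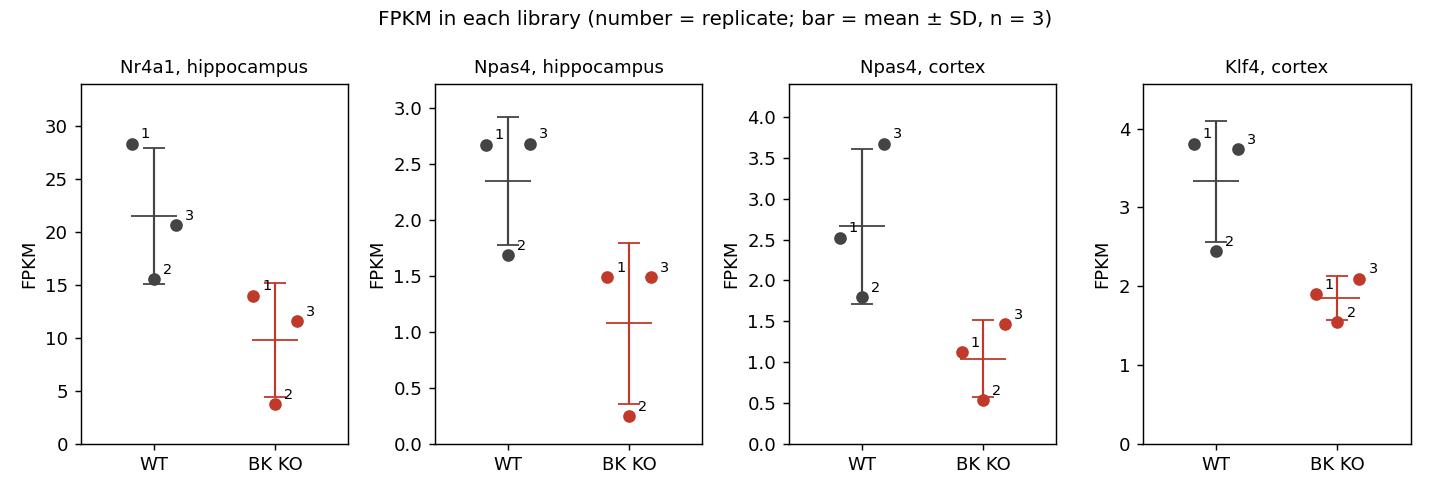
FPKM (linear axis from 0) of Nr4a1 and Npas4 in hippocampus and of Npas4 and Klf4 in cortex; each point is 1 library with its replicate number, and the bar is the mean ± SD of 3 libraries. All BK KO points lie below all WT points in each panel, and library 2 is the lowest of its genotype in every panel.

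**Figure D2:**
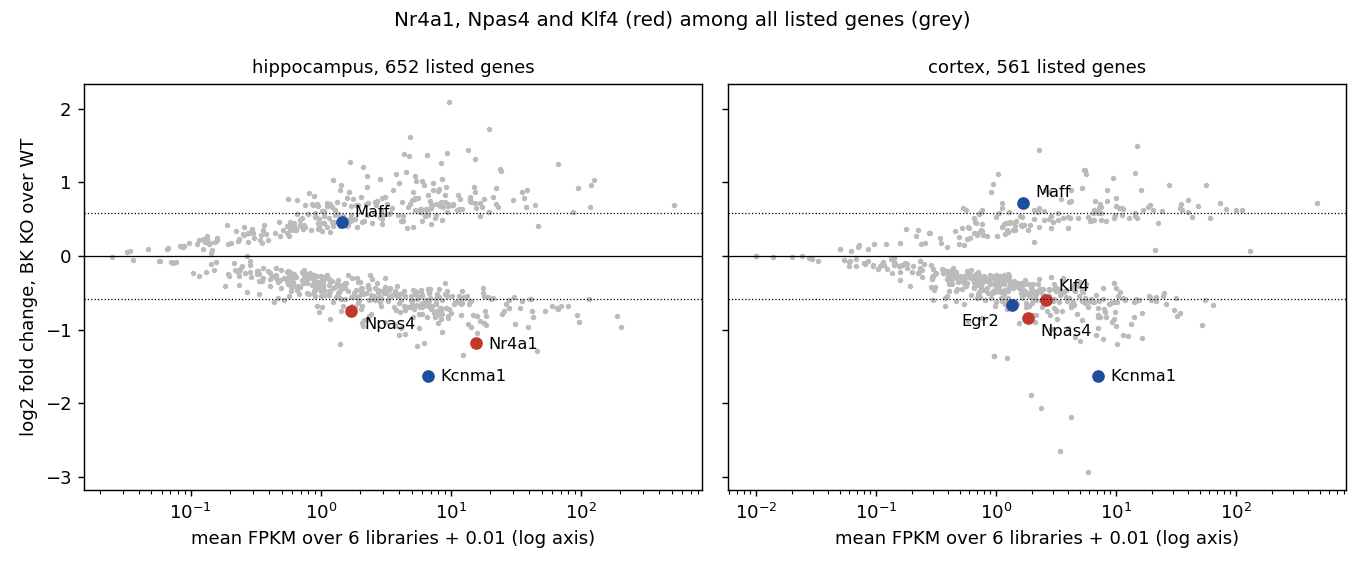
Log2 fold change of BK KO over WT on log2(FPKM + 1) against mean FPKM (log axis) for the 652 hippocampus and 561 cortex genes. Red points are Nr4a1, Npas4 and Klf4, blue points are Egr2 (cortex), Maff and Kcnma1, and dotted lines are at -0.58 and 0.58. Nr4a1 is near the lower edge of the hippocampus genes, and Klf4 lies on the threshold in cortex.

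Npas4 was the 1 gene of the 3 with values in both tissues. The log2 fold change in cortex minus that in hippocampus was -0.10 (standard error 0.41, 95% interval -0.998 to 0.804, limma adjusted p = 0.998), tested over the 196 genes listed in both tables. The interval spans 0 and is wide. A limma interaction p-value under 0.05, adjusted or not, was found in 0% of the 196 genes. These genes were listed for a genotype difference in both tissues, so genes that changed in 1 tissue only were left out beforehand. The test therefore cannot show how often the tissues differ. When hippocampus and cortex libraries of equal number and genotype were treated as 1 mouse, 4 genes had an unadjusted p under 0.05 and 0 an adjusted one. Set side by side, the WT means of Npas4 were 2.34 FPKM in hippocampus and 2.66 FPKM in cortex, less than 1 SD apart, and the BK KO means were 1.07 and 1.04 FPKM. The ratio of the cortex to the hippocampus level of same-numbered libraries was 0.947, 1.07 and 1.37 in WT and 0.756, 2.17 and 0.983 in BK KO mice. Whether same-numbered libraries of a genotype come from 1 mouse is not stated in the labels.

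Library 2 of each genotype had the lowest value of its group in all 4 pairs. In hippocampus, 15.6% of all listed genes had their lowest WT value in WT library 2 and their lowest BK KO value in BK KO library 2, and in cortex 5.53% did. Among the genes lower in BK KO, these shares were 21.3% and 6.58%. BK KO library 2 alone was the lowest of its group for 41.7% of the genes in hippocampus and 21.6% in cortex. In hippocampus, the level of Nr4a1 divided by that of Npas4 was 10.6, 9.23 and 7.69 in WT libraries and 9.39, 15.1 and 7.77 in BK KO libraries. The high ratio of BK KO library 2 rests on an Npas4 level of 0.246 FPKM. In cortex, Klf4 divided by Npas4 was 1.51, 1.36 and 1.02 in WT and 1.69, 2.89 and 1.43 in BK KO libraries, so that Npas4 was the lower of the pair in every library.

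Among 30 activity-regulated transcription factors, 3 were listed in hippocampus and 4 in cortex. In hippocampus these were Nr4a1 and Npas4, both called lower, and Maff, and in cortex Npas4, Klf4 and Egr2, all called lower, and Maff, where 21.9% and 20% of all listed genes were called lower. The median log2 fold change of the listed factors was -0.74 in hippocampus, the value of Npas4 itself, and -0.63 in cortex. Over all listed genes, higher and lower ones together, it was -0.27 and -0.33. Over the genes lower in BK KO it was -0.52 and -0.45. Nr4a1, Npas4 and Klf4 are part of the listed factors, so these medians are a description. The other factors of the list, Fos, Egr1 and Junb among them, were not analysed here. Egr2, a zinc finger factor induced with Egr1 by ERK and SRF, was at 2.04, 1.02 and 2.68 FPKM in WT and 0.709, 0.446 and 1.30 FPKM in BK KO cortex. Library 2 was the lowest of both genotypes here too, and the groups overlapped, since BK KO library 3 was above WT library 2. Its log2 fold change was -0.66, with a limma p of 0.0487 and adjusted p = 0.0662. Egr2 was called in 2 of the 6 fits that left out 1 library, and the call was lost without WT library 1 (-0.61), WT library 3 (-0.47), BK KO library 1 (-0.63) or BK KO library 2 (-0.51).

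Maff, a small Maf factor that lacks an activation domain and is induced by stress and cytokines as well as by activity, had the opposite sign. In hippocampus the values were 1.09, 1.02 and 0.991 FPKM for WT and 2.44, 1.02 and 2.15 FPKM for BK KO. In cortex the values were 0.966, 0.970 and 0.822 FPKM for WT and 3.44, 0.786 and 3.0 FPKM for BK KO. BK KO libraries 1 and 3 were high in both tissues, while BK KO library 2 was at the WT level. With log2 fold changes of 0.46 and 0.72 and limma p-values of 0.0595 and 0.0805, Maff was called in neither tissue. Without BK KO library 2 it was called in both, at 0.70 in hippocampus and 1.14 in cortex. With all libraries kept, it was called in hippocampus with a pseudocount of 0.1 (0.71) and in cortex when only genes with a mean of at least 1 FPKM were fitted (0.72).

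**Figure D3:**
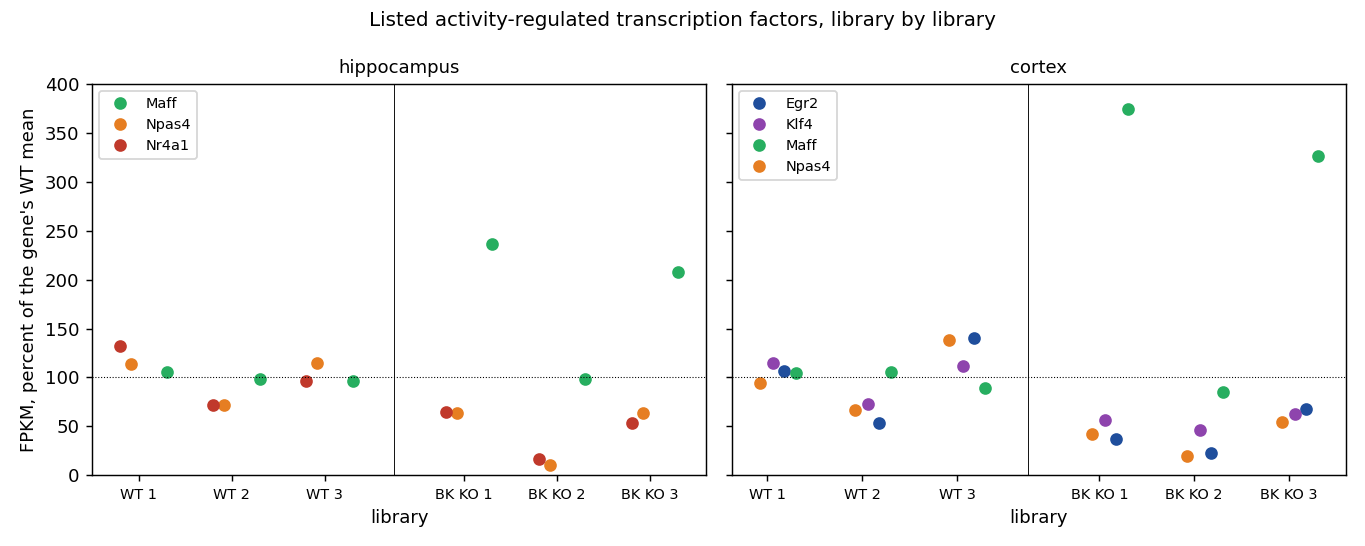
FPKM of each listed activity-regulated transcription factor as percent of the mean of its 3 WT libraries, by library (WT left of the line, BK KO right). In BK KO library 2, Nr4a1 and Npas4 are at 17.2% and 10.49% in hippocampus, Npas4, Egr2 and Klf4 are at 20.0%, 23.3% and 46.3% in cortex, and Maff is near 100% in hippocampus.

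Of 34 other activity-regulated genes, 4 were listed in hippocampus, of which 2 were called higher and 0 lower, where 20.7% of all listed genes were called higher. Scg2, which encodes the precursor of the peptide secretoneurin, rose from 68.5, 54.4 and 71.1 FPKM in WT to 118, 149 and 106 FPKM in BK KO hippocampus (log2 fold change 0.93, limma adjusted p = 0.0150). All BK KO libraries were above all WT libraries, as in 32.8% of the listed genes. Tac1, the precursor of substance P, was also called, but its WT libraries were at 3.97, 3.29 and 26.6 FPKM and overlapped the BK KO values of 36.4, 18.9 and 28.2 FPKM. Its call held in 1 of the 6 fits that left out 1 library, the one without WT library 3 (log2 fold change 2.59). Amigo3 and Plk3, a neuronal adhesion protein and a stress-induced kinase, had log2 fold changes of -0.45 and -0.48 with separated groups and were not called.

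Scg2 was the 1 gene of this list in the cortex table, and it was called higher, where 10.9% of listed genes were. Its values were 72.8, 58.3 and 59.8 FPKM in WT and 82.9, 126 and 93.2 FPKM in BK KO cortex. The groups did not overlap (24.2% of all listed genes had every BK KO library above every WT library), and the log2 fold change was 0.64 (limma adjusted p = 0.0324, not called without WT library 2, at 0.58, or BK KO library 2, at 0.47). The highest Scg2 value of BK KO mice was in library 2 in both tissues, the library with the lowest Npas4 value.

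The relatives of the 3 factors were mostly not analysed here. Of 30 nuclear receptors, Nr4a1, Rorb, Esr1 and Nr2f2 were listed in hippocampus and 0 in cortex, and Nr4a2 and Nr4a3, the other members of the Nr4a group, were in neither table. Nr2f2 (COUP-TFII), a receptor of caudal interneurons and vascular cells, was called higher, at 2.17, 2.09 and 1.97 FPKM in WT and 2.10, 4.89 and 5.97 FPKM in BK KO libraries, and its groups overlapped. Of the 6 fits that left out 1 library, only the one without BK KO library 1 called Nr2f2, at 1.06. Of 17 Klf genes, Klf4 alone was listed. Of 18 bHLH-PAS genes, the family of Npas4, hippocampus had Npas4, Arnt and Hif3a and cortex had Npas4. Arnt, a dimerization partner of this family, was at 6.50, 6.83 and 5.98 FPKM in WT and 5.56, 3.15 and 4.51 FPKM in BK KO hippocampus, with BK KO library 2 the lowest and a log2 fold change of -0.48 that was not called.

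Of 35 genes of the route from calcium entry to the nucleus, 2 were listed in hippocampus and 0 in cortex. Camk2d, a CaMKII subunit, was called higher, at 7.98, 5.0 and 4.96 FPKM in WT and 7.36, 13.4 and 11.4 FPKM in BK KO hippocampus. Grin2b, an NMDA receptor subunit, was at 2.82, 3.99 and 2.94 FPKM in WT and 3.67, 6.48 and 5.58 FPKM in BK KO hippocampus and was not called (log2 fold change 0.54). Camk2d was called without WT library 1 or BK KO library 1, and in none of the other 4 such fits. In both genes the groups overlapped, and BK KO library 2, lowest for Nr4a1 and Npas4, was the highest.

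Genes with the most similar profiles were found by the root mean square difference of log2(FPKM + 1), each gene centred on its own mean, over the 6 libraries of a tissue. For Nr4a1 in hippocampus the nearest of 442 genes were E130012A19Rik (0.23), Tnfrsf25 (0.31), Cys1 (0.31), Npas4 (0.33) and Fxyd7 (0.36), against a median of 0.72. For Npas4 in hippocampus they were Cys1 (0.11), Igflr1 (0.12), Tnfrsf25 (0.14), Fxyd7 (0.19) and Gpt (0.20), against a median of 0.47, while Amigo3 came at rank 67 (0.32) and Nr4a1 at rank 73 (0.33). Fxyd7, a regulator of the sodium pump in neurons, averaged 126 ± 22.5 FPKM (SD, n = 3) for WT and 68.1 ± 19.9 (SD, n = 3) for BK KO.

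In cortex the nearest of 344 genes to Npas4 was Egr2 (0.14), followed by Nat8f5 (0.16), Dok3 (0.17), Irf3 (0.18) and Spred3 (0.20), with Klf4 at rank 6 (0.21) and a median of 0.44. Among the nearest to Klf4 were Irf3 (0.10), Sgpp2 (0.13), Qrfpr (0.14) and Fgd2 (0.14), while Egr2 and Npas4 came at ranks 21 and 44. Irf3, the transcription factor of the interferon response, averaged 4.94 ± 0.775 FPKM (SD, n = 3) for WT and 2.90 ± 0.525 (SD, n = 3) for BK KO, and it was near to both genes. All listed genes were chosen for the same contrast, so the ranks are a description.

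Markers of several cell types moved with the genotype in the same libraries. Of 10 endothelial markers, Tek and Tie1 were listed in both tissues, with separated groups and lower BK KO values in each. Such separation was found in 47.1% of all listed genes in hippocampus and 56.3% in cortex. Tie1 was called lower in hippocampus, as 21.9% of listed genes were, and neither marker in cortex, where 20% were. The summed level of Tek and Tie1 was 5.36 to 6.55 FPKM in WT and 3.44 to 4.0 FPKM in BK KO cortex. Tie1, an endothelial receptor, was at 2.87, 3.90 and 3.35 FPKM in WT and 2.00, 2.16 and 2.36 FPKM in BK KO cortex, with its highest WT value in library 2, where Klf4 was lowest. Klf4 divided by Tie1 was 1.33, 0.627 and 1.11 in WT and 0.947, 0.714 and 0.886 in BK KO libraries, ranges that overlap. Whether endothelial content had a part in the Klf4 values was not tested.

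Of 15 skeletal muscle markers 14 were listed in cortex, of which 9 were called lower (20% of all listed genes were), and Casq1 and Myh4 had overlapping groups. Over all listed cortex genes, 56.3% had every BK KO library below every WT library. The 14 had a summed level of 92.6, 33.8 and 28.6 FPKM in WT libraries 1 to 3 but only 7.85 to 10.2 FPKM among the BK KO libraries. The listed value was 0 for Mylk2 in every BK KO library, for Ckm in library 3 and for Myl1 in library 2. Without WT library 1, which had the highest muscle sum, the log2 fold change of Npas4 was -0.85 and still called. That of Klf4 was -0.51 and not called, as also without WT library 3 or BK KO library 2. The muscle sums of WT libraries 2 and 3 were still above those of every BK KO library. Leaving out WT library 1 is therefore no test of muscle content. In hippocampus, 5 of 10 pericyte and smooth muscle markers were listed, of which 1, Vtn, was called lower (21.9% of all listed genes were). Of the 5, 4 had separated groups with BK KO lower, as had 47.1% of all listed genes, and Anpep overlapped. The 5 markers summed to 60.7 to 64.6 FPKM in WT and 37.1 to 45.6 FPKM in BK KO libraries. Of 11 interneuron markers, Gad2 and Reln were listed in hippocampus, and both were called higher. They summed to 18.7 to 21.4 FPKM in WT and 39.0 to 51.1 FPKM in BK KO hippocampus. In cortex Gad2 alone of these markers was listed, and it was called higher (log2 fold change 0.69). Its values were 12.9 to 15.6 FPKM in WT and 19.1 to 33.1 FPKM in BK KO cortex. Gh, a pituitary marker, was listed at 0 for all WT hippocampus libraries, against 0.120, 0.184 and 57.5 FPKM for BK KO libraries 1 to 3. Of the other marker lists, Opalin of oligodendrocytes was called lower in both tissues, Gfap of astrocytes was called higher and Hba-a2 of blood lower in cortex, and Trh of hypothalamus was called higher in hippocampus. Over all listed genes, 21.9% were called lower and 20.7% higher in hippocampus, and 20% lower and 10.9% higher in cortex. The part of these cell types in the Nr4a1, Npas4 and Klf4 values was not tested.

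**Figure D4:**
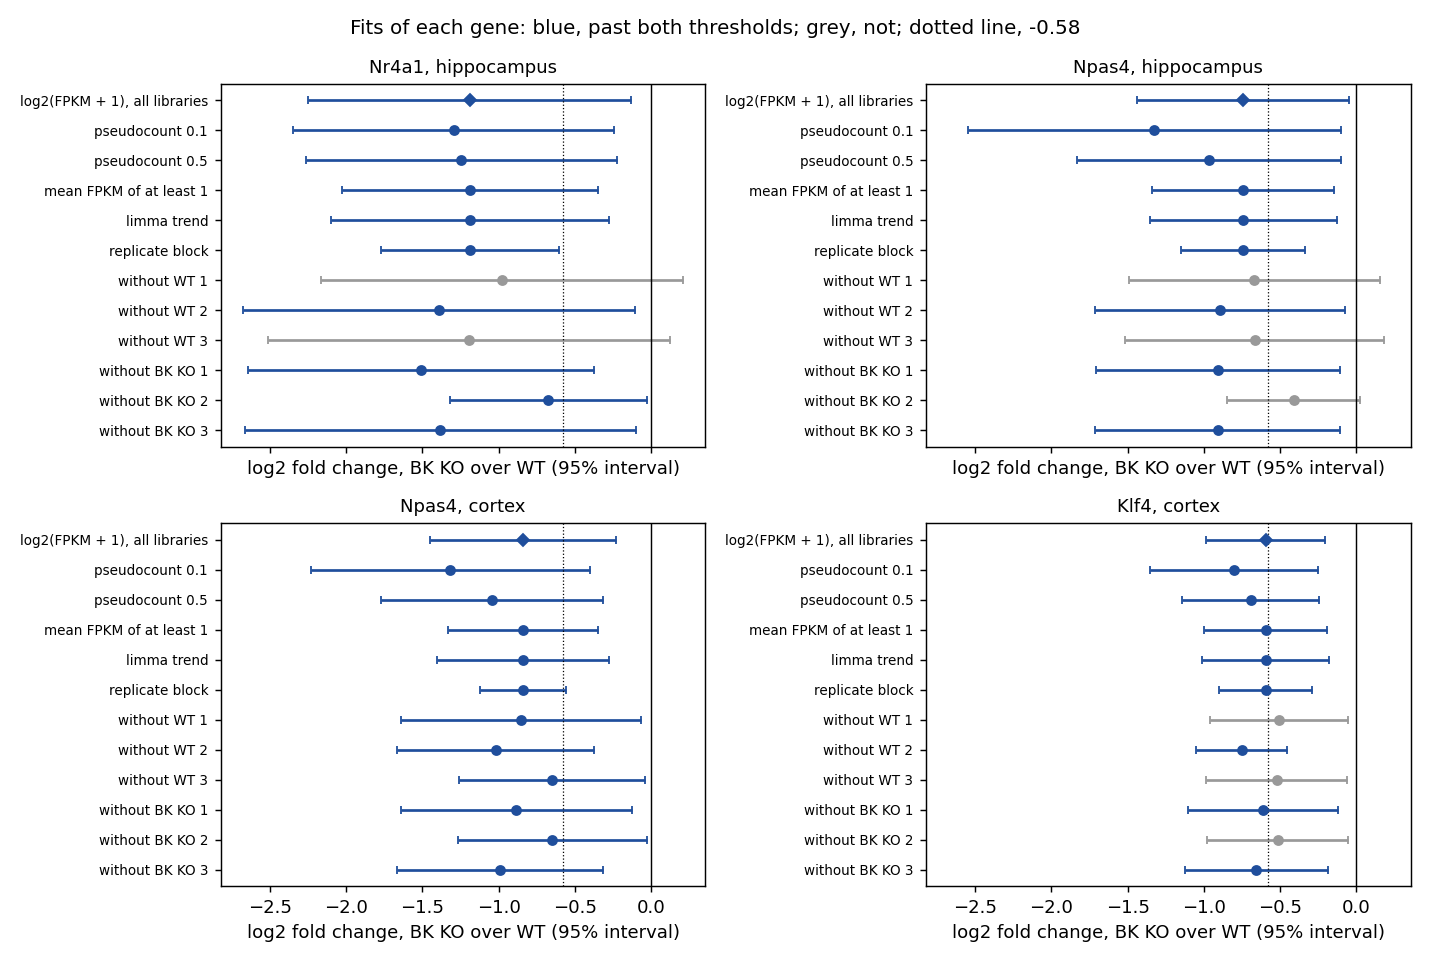
Log2 fold change with its 95% interval for each gene and tissue under each setting; diamonds are the fit on log2(FPKM + 1) with all 6 libraries, blue passes both thresholds, grey does not, and the dotted line is at -0.58. Every estimate is below 0, and grey fits appear where a library is left out, for Nr4a1 (2 of 6), Npas4 in hippocampus (3 of 6) and Klf4 (3 of 6).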

How the data were processed

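Hippocampus and cortex RNA of 3 WT and 3 BK KO mice was made into poly-A libraries and sequenced as paired ends by the authors. Per the labels' processing notes the build was mm9 and the comparison tool DESeq 1.10.1 (DESeq2 is also named); the aligner is not given in the sources used here. The deposited per-library values are taken as FPKM from their digits and their relation to transcript length; the authors' text does not name the unit. The deposited base means, a signal of read counts divided by size factors, and the deposited fold changes and p-values of the authors' comparison are not reported. All per-library columns matched a sample by name (0 unmatched).

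Each tissue was fitted over all its listed genes with limma 3.58.1 (R 4.3.3; lmFit, eBayes, no block) on log2(FPKM + 1). Replicates are labelled as separate samples, and p-values measure the spread between them. The fit was tested on simulated data before use. Python 3.11.15, scipy 1.17.1 and matplotlib 3.10.9 served for the other steps. Gene positions come from GENCODE M21 and promoters from RefSeq, both GRCm38 and so not the build named by the submitters; the tables hold no coordinates, and genes were matched by symbol. The genes, the gene lists, the rule for named genes (the 3 factors, listed genes of the fixed lists and the 5 nearest profiles at a mean of at least 1 FPKM) and the tests were chosen with earlier results of these data known. Alternatives were other pseudocounts, a filter on mean FPKM, limma's trend, a replicate block, stricter thresholds and omitting each library in turn. Some results that these rules name are not reported here.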

Additional observations from a re-analysis of the deposited data

How the results depend on the processing

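The 4 gene and tissue pairs kept their direction under every alternative run. Their call held under the pseudocounts of 0.1 and 0.5, the filter on mean FPKM, limma's trend and the replicate block. Of the 4 pairs, only Nr4a1 in hippocampus (-1.19) passed a log2 fold change beyond 1. Npas4 in hippocampus missed a limma adjusted p-value under 0.05 (0.0529), and the other pairs passed it. With each library left out in turn, the log2 fold change of Nr4a1 in hippocampus ranged from -1.51 to -0.67 (called in 4 of 6 fits), that of Npas4 from -0.91 to -0.41 in hippocampus (3 of 6) and from -1.02 to -0.65 in cortex (6 of 6), and that of Klf4 from -0.75 to -0.51 (3 of 6). Over all listed genes, 278 were called in hippocampus and 173 in cortex. A pseudocount of 0.1 gave 548 and 408, and a log2 fold change beyond 1 gave 35 and 25; with stricter thresholds fewer genes can pass by construction. An adjusted p-value under 0.05 gave 262 and 154, and leaving out 1 library 230 to 282 and 135 to 180.

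Same-numbered WT and BK KO libraries are different mice. Their deviations from the group means had correlations of 0.02, 0.08 and -0.07 across hippocampus genes and -0.24, 0.12 and -0.22 across cortex genes. Over all listed genes the numbers thus showed little pairing. These correlations cannot decide whether same-numbered libraries share an effect confined to a few genes. For Nr4a1, Npas4 and Klf4, the same library number was lowest in both genotypes in each tissue where they were listed. Whether activity-regulated genes are paired by number was not tested. With the replicate block, 272 and 165 genes were called and the limma p-values were 0.00330 for Nr4a1, 0.00517 and 0.000910 for Npas4 in hippocampus and cortex and 0.00498 for Klf4. For the difference of Npas4 between tissues, blocking same-numbered libraries of a genotype as 1 mouse gave -0.10 (95% interval -0.52 to 0.32, a limma p of 0.607), and a pseudocount of 0.1 gave 0.01 (a limma p of 0.992). The unknown depth limits the precision of levels under 1 FPKM most.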
